A study of Mus musculus with 18 samples.

Results

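Bone marrow-derived macrophages of mice lacking BAFF (BAFF KO) were set against those of wild-type mice (WT), both without stimulation. The comparison rests on 4 of the 18 deposited columns, 2 for each genotype, which the sample titles number as 1 and 2. The column names give both columns of a genotype at rest the same first number, which was read here as a library number. By that reading the 4 columns come from 2 of the 9 libraries in the study. All mice carry the strain label C57BL/6J and a time-point label of day 16 of gestation with a note on preterm birth. The other groups used here were unstimulated macrophages lacking APRIL (APRIL KO, 1 library), and WT and BAFF KO macrophages given 10 ng/ml lipopolysaccharide (LPS) for 4 hours (2 libraries each). The sources used here give neither the knockout alleles nor the number of animals behind a library nor the culture conditions. Beyond the numbers in the titles, nothing in the labels separates the columns of a group by animal or culture, and nothing says whether unstimulated and LPS-treated cells shared animals.

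BAFF (gene Tnfsf13b) and APRIL (gene Tnfsf13) are related cytokines of the TNF family, made largely by myeloid cells, and both are known as survival factors of B cells and plasma cells. They bind the receptors TACI (Tnfrsf13b) and BCMA, and BAFF alone also binds BAFF-R. BAFF-R signals by taking TRAF3 away from the kinase NIK (Map3k14), which then opens the non-canonical NF-kB pathway. Macrophages grown from bone marrow are the standard culture model of this cell, in which precursors such as monocytes and granulocyte progenitors are largely lost while F4/80 (Adgre1), the CSF1 receptor and lysosomal genes come to dominate.

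The values are RPKM, reads scaled by gene length and by the library's total, for 11164 genes, and the 9934 genes that reached a mean of 1 RPKM in any of the 6 groups were tested. Differences are BAFF KO minus WT on the log2(RPKM + 1) scale, between the means of the 2 columns of each library. A difference of 1 is 2-fold in a well expressed gene and stands for more than 2-fold in a gene near 1 RPKM. The WT columns held 1800731 and 3698012 reads and the BAFF KO columns 1871427 and 3904944. Within each of these libraries the columns differed by a mean chi-square per gene of 1.91 (WT) and 1.73 (BAFF KO). Counting error alone would give a value near 1, so the columns of each library differed by more than that. Separate libraries of one LPS group differed by 2.61 to 3.44 in their shallower columns and by 4.51 to 5.47 in their deeper ones. WT and BAFF KO at rest differed by 7.25 in their shallower columns and 11.96 in their deeper ones. Deeper columns gave higher values, and the 2 columns within a library are of unlike depth. With that limit, and by the shared number in their names, the 2 columns were treated as 1 library. There is thus 1 library a genotype at rest, and no p-value is given for any difference at rest. A gene was counted as higher or lower where its difference was at least 1.5-fold and both columns of one library lay beyond both columns of the other.

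Both libraries carried the markers of macrophages. The lysozyme gene Lyz2 stood at 4414 and 4663 RPKM in WT and at 5153 and 5391 in BAFF KO, and the CSF1 receptor gene Csf1r at 566 and 573 against 501 and 510. Adgre1 read 526 and 536 RPKM in WT and 420.0 and 426 in BAFF KO, a difference of -0.33. Of 10 macrophage markers tested, 1 (Mertk) was past the 1.5-fold rule. Tnfsf13b was not analysed here. The label of the BAFF KO library therefore has no check by its own target. Tnfsf13 read 41.9 and 44.9 RPKM in WT and 55.7 and 49.9 in BAFF KO (difference 0.28, short of the rule), and was near its floor in APRIL KO at a mean of 0.233 RPKM.

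By the 1.5-fold rule 290 genes were higher in BAFF KO, 2.92% of those tested, and 675 were lower, 6.79%. At 2-fold the counts were 48 higher (0.483%) and 132 lower (1.33%). The same 1.5-fold rule, in either direction, picked 372 genes (3.74%) between the 2 WT libraries with LPS, 335 (3.37%) between the 2 BAFF KO libraries with LPS and 424 (4.27%) between the 2 APRIL KO libraries with LPS. These library pairs show how many genes pass inside a group, and the count between WT and BAFF KO at rest was larger than in any of the 3 pairs. APRIL KO differed from the same WT library in 502 genes (5.05%), and BAFF KO from APRIL KO in 1589 (16.0%). The balance of directions depended on the scaling. The median of all genes was -0.08 as deposited. Median ratio scaling gave 336 genes higher and 426 lower, and quantile normalization 474 higher and 426 lower.

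**Figure D1:**
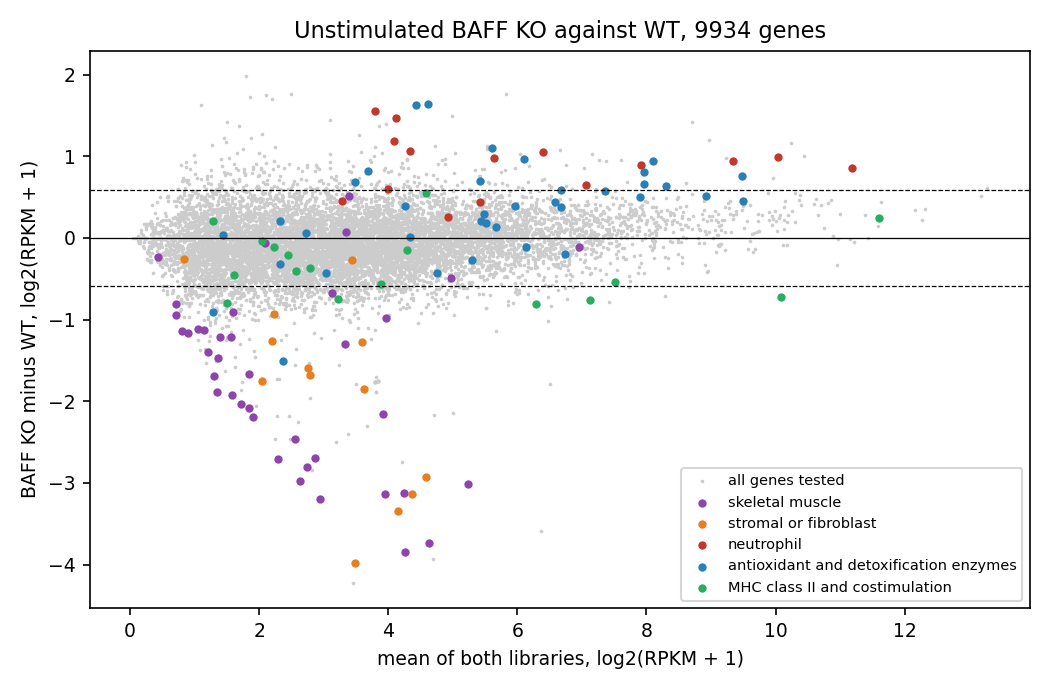
Each point is 1 of 9934 genes in unstimulated macrophages: the x axis is the mean of both libraries and the y axis BAFF KO minus WT, both in log2(RPKM + 1), with dashed lines at 1.5-fold and 5 gene lists in colour. Neutrophil and antioxidant genes lie mostly above 0, MHC class II genes mostly below, and the skeletal muscle and stromal lists reach -3.85 and -3.98.

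Part of the spread followed gene length. With the genes cut by length into 10 bins of equal size, in the bin of the shortest (196 to 1293 bases) the median difference was 0.18, with 103 genes higher and 67 lower. In the bin of the longest (8069 to 35018 bases) it was -0.28, with 0 higher and 129 lower. Spearman's rho between length and difference was -0.374 across 9934 genes, which share the same 2 pairs of columns and are not replicates. Libraries of a single group also differed in this way: between the 2 WT libraries with LPS the medians ran from 0.10 to -0.10, and between the 2 BAFF KO libraries with LPS from -0.06 to 0.12. The trend had the opposite slope for APRIL KO minus WT at rest (-0.13 to 0.15) and for BAFF KO minus WT with LPS (-0.15 to 0.16). With the median of each bin subtracted, an alternative added after the data were seen, 280 genes were higher and 426 lower by 1.5-fold. Length-centred values are given below for the groups they touch.

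**Figure D2:**
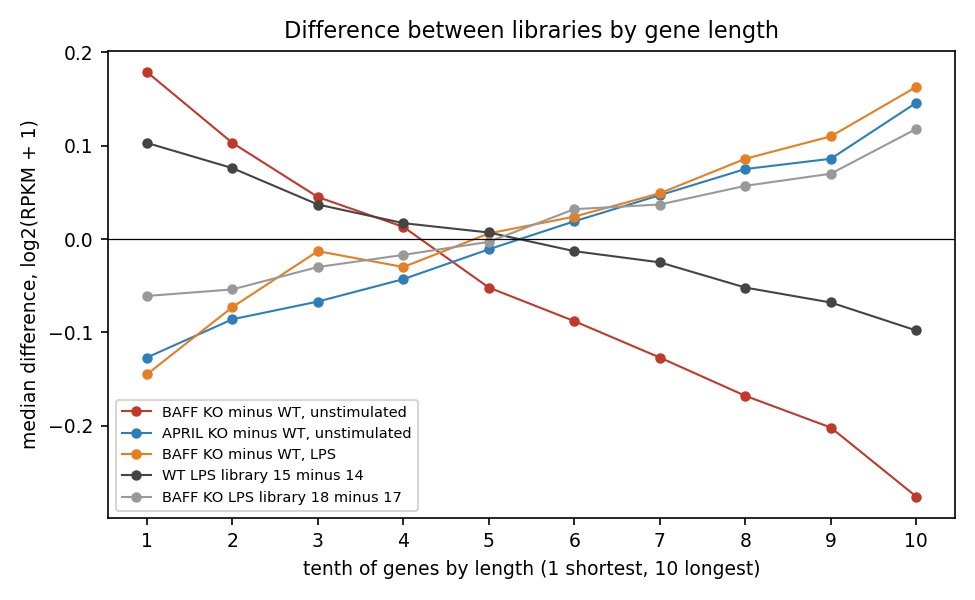
Median difference between 2 libraries or groups (y axis, log2(RPKM + 1)) in each of 10 bins of genes by length (x axis, shortest to longest), 1 line per comparison. The line for BAFF KO minus WT at rest falls from 0.18 to -0.28, and the pairs of libraries within a group slope by smaller amounts in both directions.

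Genes of granulocytes and their precursors stood higher in BAFF KO. Of 15 neutrophil markers tested, 12 were higher by the rule and 0 lower, with a median of 0.94 (0.80 length-centred, 11 higher) against -0.08 over all genes. Proteinase 3 (Prtn3), a serine protease of the primary granules, read 5.79 and 6.27 RPKM in WT and 21.1 and 18.4 in BAFF KO, a ratio of scaled reads of 3.23 (95% exact binomial interval 2.39 to 4.43, counting error only). Neutrophil elastase (Elane) read 10.3 and 6.21 in WT and 25.7 and 23.5 in BAFF KO. Neither gene's columns overlapped between the genotypes, and APRIL KO stayed near WT at means of 6.82 and 9.53 RPKM. Among abundant members, S100a9, a subunit of calprotectin, stood at 1662 and 1666 RPKM in WT and 3029 and 2989 in BAFF KO. Its partner S100a8 read 668 and 741 against 1321 and 1479. Myeloperoxidase (Mpo, 1.06), cathepsin G (Ctsg, 1.19), the cathelicidin gene Camp (1.05), Ngp (0.94) and lactoferrin (Ltf, 0.89) lay in the same range. The 12 genes, which include granule enzymes of the precursor stage and later granule and cytosolic proteins, were higher by 0.60 to 1.56 on the log2 scale.

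Monocyte genes were the second such group. Of 10 tested, 5 were higher and 0 lower (median 0.60), with 9 differences above 0 and 1 below it, at -0.54. Ly6c2, which codes for the Ly6C surface protein of inflammatory monocytes, read 85.9 and 99.5 RPKM in WT and 191 and 189 in BAFF KO. Its neighbour Ly6c1 gave 58.3 and 70.3 against 136 and 139, and since these genes are near copies the reads may be shared between them. Chil3, a chitinase-like protein of monocytes and alternatively activated macrophages, read 394 and 408 RPKM in WT and 787 and 799 in BAFF KO. Plac8 (0.85) and Treml4 (0.71, on 15 WT reads) were the remaining higher members, while the chemokine receptor Ccr2 (0.03) and Cx3cr1 (0.07) did not differ by the rule. Summed over the list, monocyte markers came to 596.5 and 647 RPKM in WT, 1210.0 and 1222 in BAFF KO and 597 and 617 in APRIL KO, and neutrophil markers to 3247 and 3326, 6083 and 6146, and 2871 and 2988. The BAFF KO columns were the high ones in both sums. Chil3 alone made up 394 and 408 RPKM of the monocyte sum in WT and 787 and 799 in BAFF KO. S100a8 and S100a9 made up most of the neutrophil sum, so the sums speak mainly for these abundant genes. No neutrophil or monocyte marker was at 0 reads in any of the 3 libraries. In bulk RNA a larger number of such cells and more of their RNA per cell cannot be told apart, and the part these cells take in the other differences below was not tested.

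Iron and heme genes showed some of the largest differences among well expressed genes. Ferroportin (Slc40a1, 1:45908068-45926523 in GRCm38), the only known cellular iron exporter, read 15.5 and 15.5 RPKM in WT, 42.7 and 48.5 in BAFF KO and a mean of 19.8 in APRIL KO. The BAFF KO to WT ratio of its reads was 3.02 (95% interval 2.64 to 3.45). Heme oxygenase 1 (Hmox1, 8:75093621-75100589), which breaks heme down and releases its iron, read 306 and 303 in WT, 716 and 681 in BAFF KO and a mean of 322 in APRIL KO, a ratio of 2.28 (2.19 to 2.37). Spic, the heme-induced transcription factor of red pulp macrophages, read 5.27 and 6.55 against 15.5 and 15.7. In all 3 genes the BAFF KO columns lay above those of WT with no overlap, and APRIL KO lay near WT. The ferritin heavy chain gene Fth1 (7796 and 7875 RPKM in WT, 11930.0 and 12050.0 in BAFF KO), biliverdin reductase B (Blvrb, 0.60) and the heme synthesis enzyme Alas1 (0.69) were the other higher genes of the list. The heme exporter Flvcr1 was the 1 lower gene (-0.59). Of 25 genes, 6 were thus higher and 1 lower, with a median of 0.20 (0.31 length-centred, 5 higher and 0 lower). Hmox1 is also held by the antimicrobial list, where 7 of 23 genes were higher and 1 (Ptx3, on 7 WT reads) lower, and 5 of those 7 (Lcn2, Camp, Ctsg, Mpo and Elane) are neutrophil markers as well.

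Enzymes that detoxify peroxides, electrophiles and amines formed a larger group. Of 37 antioxidant and detoxification genes, 12 were higher in BAFF KO and 2 lower, with a median of 0.39 (0.39 length-centred, 13 higher and 2 lower). Many genes of this list are textbook targets of the transcription factor NRF2 (Nfe2l2), which binds the antioxidant response element. The promoters of 4 of the 12 are shown because they hold the core of that element, TGANNNNGC, on either strand within 250 bases before the start, in capitals. The windows are from RefSeq, build GRCm38.p6, 5′ to 3′ on the strand of the gene.
Prdx1 (chr4:116685349-116685598, plus strand): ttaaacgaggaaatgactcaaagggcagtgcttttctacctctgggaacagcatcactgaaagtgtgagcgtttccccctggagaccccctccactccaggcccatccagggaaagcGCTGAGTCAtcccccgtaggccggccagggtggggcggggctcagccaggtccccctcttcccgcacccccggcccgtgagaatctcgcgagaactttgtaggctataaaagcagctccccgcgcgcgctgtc
Gclm (chr3:122245307-122245556, plus strand): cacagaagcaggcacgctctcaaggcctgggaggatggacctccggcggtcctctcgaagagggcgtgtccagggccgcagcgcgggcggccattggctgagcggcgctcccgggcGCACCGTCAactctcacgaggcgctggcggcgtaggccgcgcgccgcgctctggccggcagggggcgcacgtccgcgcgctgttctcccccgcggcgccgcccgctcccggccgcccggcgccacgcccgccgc
Gsta3 (chr1:21240335-21240584, plus strand): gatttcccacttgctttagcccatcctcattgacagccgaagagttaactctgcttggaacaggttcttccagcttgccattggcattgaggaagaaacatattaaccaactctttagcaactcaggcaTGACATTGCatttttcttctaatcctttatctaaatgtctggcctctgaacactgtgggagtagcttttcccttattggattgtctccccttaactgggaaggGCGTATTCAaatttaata
Mgst1 (chr6:138140277-138140526, plus strand): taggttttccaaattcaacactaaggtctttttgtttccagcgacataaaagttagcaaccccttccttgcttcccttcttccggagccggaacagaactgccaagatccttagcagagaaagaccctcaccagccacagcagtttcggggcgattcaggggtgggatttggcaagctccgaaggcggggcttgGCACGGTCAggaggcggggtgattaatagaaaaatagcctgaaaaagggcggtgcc
In Prdx1, Gclm and Mgst1 the capitals read the core on the minus strand, and Gsta3 has 1 match on each strand. Of the 12 genes 11 had an entry, and 5 of these held the core, against 35.2% of 32851 RefSeq windows of the same length and 14 of 32 for the whole list. In the same windows the metal response element (TGCACNC or TGCGCNC) was found in 2 (21.4% of all windows), the AP-1 site TGANTCA, which can overlap the antioxidant core, in 1 (6.75%), the kappa B site in 2 (7.25%), the E-box CACGTG in 0 (6.02%) and the interferon-stimulated response element in 0 (2.98%). A match is a string of letters, and the core was picked for this search after the values were seen.

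The list's largest difference was that of monoamine oxidase A (Maoa, X:16619698-16687818), a mitochondrial enzyme that oxidises serotonin and noradrenaline. It read 11.1 and 10.9 RPKM in WT and 34.5 and 38.1 in BAFF KO, a ratio of 3.39 (2.94 to 3.92), and a mean of 8.26 in APRIL KO. The glutathione transferase Gsta3 read 8.83 and 10.2 against 33.6 and 29.4, and microsomal Mgst1 28.5 and 31.5 against 63.9 and 66.9. Each of these 3 genes was high in BAFF KO alone among the unstimulated libraries. The glutathione synthesis subunit Gclm read 31.9 and 31.8 RPKM in WT and 51.8 and 52.8 in BAFF KO. Peroxiredoxin 1 (Prdx1) read 429 and 627 against 988 and 794, so that its WT columns differed from one another more than those of most genes named here. Gstm1 (0.94) has near copies in its family, which may share reads. Catalase (Cat, 0.57) missed the rule by size, and Nfe2l2 itself stood at 31.2 and 28.8 RPKM in WT and 23.3 and 20.6 in BAFF KO (-0.44, short of the rule). Not all NRF2 targets were on the higher side. The quinone reductase Nqo1 was lower, at 7.18 and 6.12 RPKM in WT and 1.73 and 1.66 in BAFF KO (-1.51) with APRIL KO at 2.06, and Srxn1 (-0.43), Txnrd1 (-0.20) and the cystine carrier Slc7a11 (0.04) did not pass the rule.

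Several single genes outside these lists were far higher. The scavenger receptor Marco (1:120474538-120505024), which binds bacteria and particles, read 25.7 and 23.8 RPKM in WT and 93.7 and 79.1 in BAFF KO. APRIL KO read 91.1 on average, so that the WT library is the low one of the 3. The fatty acid binding protein Fabp4 read 226 and 228 against 615 and 596, with APRIL KO at 239. Osteopontin (Spp1), a secreted phosphoprotein, read 740 and 749 against 1648 and 1689, a difference of 1.16. For Fabp4 and Spp1 BAFF KO was the high library. The receptor Mertk and its ligand Gas6, which together tether apoptotic cells to the macrophage, read 11.6 and 12.3 against 23.02 and 22.3, and 52.1 and 56.1 against 90.8 and 84.9. Of 20 genes for uptake of apoptotic cells these were the 2 higher, beside 3 lower (Itgav, Havcr2 and Thbs1), and for Mertk APRIL KO stood at 23.02, as high as BAFF KO. Among 12 scavenger receptors Marco and Cd5l (0.71) were higher and 0 lower.

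The largest of the higher differences was that of the ceramide synthase gene Cers4 (8:4493026-4531680), which read 0.330 and 0.483 RPKM in WT, 5.403 and 3.71 in BAFF KO and 0.446 in APRIL KO. It rests on 10 WT and 122 BAFF KO reads, a ratio of 11.6 (6.10 to 24.8). Its start lies 5.51 Mb before that of Tnfsf13b (8:10006467-10039072). Within 10 Mb of Tnfsf13b 52 genes were tested, of which 4 (Cers4, Gas6, Mcemp1 and F10) were higher and 4 lower, 15.4% against 9.71% of all genes. Of the remaining genes with the largest higher differences, the small GTPase Rab4a (1.27 and 1.86 RPKM against 7.33 and 8.05) was also high in APRIL KO at 6.28. Prg4 (1.75) rests on 18 WT reads, Prl2c2 and its near copy Prl2c3 on 3 and 1, and Tmsb15b2 on 0 WT and 10 BAFF KO reads. The constant region gene Ighg2b had 0 reads in WT and 84 in BAFF KO, at least 26.7-fold higher against a limit of 3 reads for the WT library. It was at its floor in APRIL KO as well. With LPS it was found in both WT libraries, at 0.297 and 1.02 RPKM, against 1.38 and 2.07 in BAFF KO. The list of B cell markers, lower as a group, does not hold this gene. Tmsb4x passed the 2-fold rule only because its WT columns disagreed (135 and 1700 RPKM, against 1758 and 1935), and it was left out of the description.

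**Figure D3:**
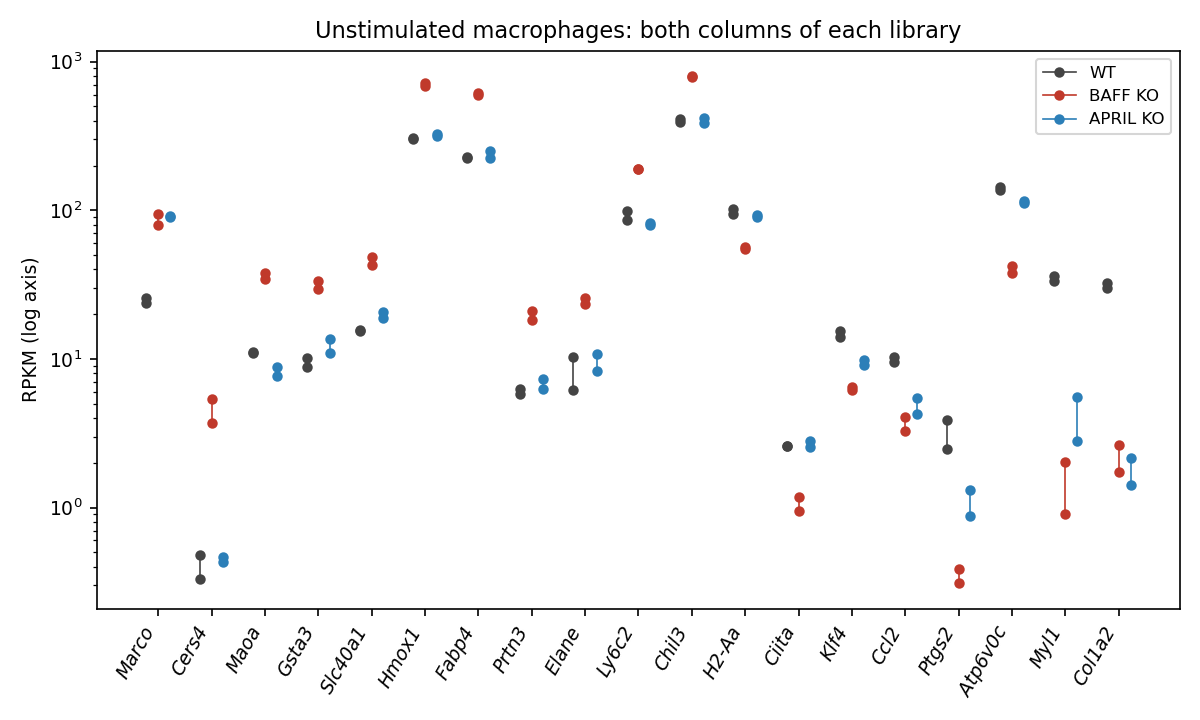
RPKM on a log axis for 19 genes in unstimulated WT, BAFF KO and APRIL KO macrophages, each point 1 of the 2 columns of a library, joined by a line. WT and BAFF KO columns do not overlap for any gene shown, and APRIL KO stands with WT for Maoa, Slc40a1 and Hmox1 but with BAFF KO for Marco.

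On the lower side, MHC class II genes, whose products present peptides from outside the cell to CD4 T cells, lay lower. Of 17 genes for class II presentation and costimulation 5 were lower and 0 higher, with a median of -0.40 (-0.40 length-centred, 5 lower). H2-Aa (17:34282744-34287823), the alpha chain of I-A, read 102 and 95.1 RPKM in WT, 54.7 and 56.4 in BAFF KO and a mean of 91.4 in APRIL KO, a ratio of 0.574 (0.537 to 0.613). The beta chain of I-E, H2-Eb1, read 180.3 and 169.6 against 104 and 101, and the invariant chain Cd74 read 1341 and 1357 against 806 and 822. Ciita, the master activator of class II transcription, was at 2.60 and 2.60 against 1.19 and 0.946 RPKM, and Cd83 at 11.7 and 9.74 against 7.25 and 4.67. Length-centred, Ciita fell short of the rule at -0.52, so the 5 lower by that measure are not the same 5 genes. H2-Ab1 read 218 and 214 against 163 and 133, short of the rule at -0.54. In all 6 genes both BAFF KO columns lay below both WT columns. Class II promoters share a Y box, CTGATTGG, bound by NF-Y next to the sites that recruit CIITA. Of the 5 lower genes 2 had a RefSeq window, and both held the Y box, capitalised here, against 3.83% of all windows and 3 of 11 in the list.
H2-Aa (chr17:34287824-34288073, minus strand): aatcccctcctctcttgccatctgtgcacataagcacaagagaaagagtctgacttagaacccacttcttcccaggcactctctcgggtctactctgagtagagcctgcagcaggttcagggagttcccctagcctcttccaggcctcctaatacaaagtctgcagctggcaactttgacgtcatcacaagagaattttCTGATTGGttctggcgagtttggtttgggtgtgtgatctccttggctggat
H2-Eb1 (chr17:34305617-34305866, plus strand): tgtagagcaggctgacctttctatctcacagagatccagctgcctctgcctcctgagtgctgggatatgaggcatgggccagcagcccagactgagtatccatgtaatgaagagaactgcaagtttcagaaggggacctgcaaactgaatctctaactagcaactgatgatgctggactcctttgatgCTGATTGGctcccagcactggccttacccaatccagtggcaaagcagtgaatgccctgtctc
The Y box begins 51 bases before the start of H2-Aa and 62 before that of H2-Eb1. Both windows also held the antioxidant core, and that of H2-Aa a kappa B site. The Y box was chosen after the values were seen. Since class II promoters share it, its presence in these 2 windows gives no information on their difference at rest.

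Class I genes did not share this direction: of 23, 1 (H2-T23, 66.5 and 60.01 RPKM in WT, 116 and 93.5 in BAFF KO) was higher and 0 lower, with a median of 0.35. B cell markers, which also use class II genes, were lower as a group. All 6 that were tested had differences below 0, as did 5807 of all 9934 genes. Of the 6, 3 passed the rule, Cd79a (-0.93) and Ighm among them, against 6.79% of all genes. Their summed levels over the list were 45.5 and 51.0 RPKM in WT, 29.8 and 26.5 in BAFF KO and 41.2 and 43.6 in APRIL KO. None of the 6 was at 0 reads in any of these libraries. Of 6 dendritic cell markers 1 (Bst2, also an interferon-stimulated gene) was higher and 0 lower. What part B cells take in the class II difference was not tested.

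Immediate early genes, transcription factors and phosphatases that are induced within minutes of a stimulus, were all on the lower side. Of 14 tested, 7 were lower by the rule and all 14 had differences below 0 (median -0.58, -0.59 length-centred). Fos read 73.8 and 69.6 RPKM in WT and 41.9 and 41.4 in BAFF KO, and Klf4, also a regulator of monocyte and macrophage identity, 15.5 and 14.04 against 6.495 and 6.14 (-1.11). The others were Fosl1, Fosl2, Klf2, Myc and the MAP kinase phosphatase Dusp1 (-0.75). The count depended on which library BAFF KO was set against: set against APRIL KO in place of WT, 1 of the 14 was lower, and the median was -0.29. APRIL KO read a mean of 54.8 RPKM for Fos and 9.44 for Klf4, between the other libraries for both.

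Genes of NF-kB and of resting cytokine output were mixed. Of 24 NF-kB subunits and feedback genes 5 were lower and 0 higher (median -0.23): the subunit Rel (11.2 and 9.41 RPKM in WT, 5.56 and 5.42 in BAFF KO), Nfkbid, Nfkbie, Tnip3 and Dusp1. Median ratio scaling and quantile normalization each left 3 of the 24 lower. The inhibitors Nfkbia (0.06) and Tnfaip3 (-0.27) did not pass the rule. Of 23 chemokines 6 were lower and 2 higher, with a median of -0.02 that became 0.03 under median ratio scaling (3 lower, 2 higher) and 0.05 under quantile normalization (5 lower, 4 higher). Set against APRIL KO in place of WT, 0 chemokines were lower and 1 was higher. Ccl2, which draws monocytes to tissue, read 10.3 and 9.52 RPKM against 3.29 and 4.06 in BAFF KO and 4.89 in APRIL KO. Cxcl2 (-0.62) and Ccl9 (-0.64) were lower, Ccl7 (-0.83) and Ccl8 (-0.59, on 2 WT reads) were lower at few reads, and Ccl3 (0.60) and Cxcl14 (0.70) were higher. Among 20 proinflammatory cytokine genes Il1b (14.2 and 12.7 against 5.47 and 10.1 RPKM) and Il10 (-0.66, on 18 and 9 reads) were lower. Il18 (0.59, on 33 and 54 reads) was higher, but short of the rule length-centred at 0.41. For Il10 and Il18 the 95% intervals of the read ratio included 1 (0.188 to 1.12 and 0.992 to 2.48). Tnf, at 24.7 and 19.4 against 14 and 20.91 RPKM, overlapped between the genotypes. Cytokine receptors leaned the same way as the NF-kB list, with 7 of 38 lower and 0 higher (5 lower length-centred). They included the shared beta chain of the GM-CSF receptor, Csf2rb (118.5 and 115 RPKM against 62.7 and 67.1), the type I interferon receptor chain Ifnar1 (27.8 and 31.8 against 14.9 and 17.2) and the IL-6 family chain Il6st (-0.87). These 3 transcripts stood near WT in APRIL KO, at means of 104, 35.3 and 22.7 RPKM.

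Among 27 matrix proteases and their inhibitors 8 were lower and 1 (Mmp9, 0.67) higher. The metalloproteinase inhibitor Timp1 read 49.7 and 53.0 RPKM in WT and 7.27 and 14.5 in BAFF KO (-2.14), and the urokinase gene Plau 139.5 and 138.5 against 89.3 and 92.7 (-0.61). In APRIL KO Timp1 stood at 3.18 RPKM, so that WT was the high library of the 3, while Plau was at 141, near WT. The prostaglandin synthase Ptgs2 read 3.90 and 2.49 RPKM in WT, 0.388 and 0.310 in BAFF KO and 1.09 in APRIL KO, on 65 and 6 reads. Atp6v0c and Rbpj, of other roles, were low in BAFF KO alone. Atp6v0c (17:24163866-24169702) codes for the proteolipid ring subunit of the lysosomal proton pump and read 137 and 144 RPKM in WT, 41.9 and 37.8 in BAFF KO and 114 in APRIL KO, a ratio of 0.275 (0.254 to 0.299). It has processed copies elsewhere in the genome with which reads may be shared, and of 51 lysosomal genes only it and Mitf (-0.68) were lower. Rbpj, the DNA-binding partner of Notch, read 18.4 and 16.7 RPKM in WT, 6.93 and 6.87 in BAFF KO and 16.7 in APRIL KO (-1.23, -0.96 length-centred). Rbpj was singled out after its values were seen.

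Many of the largest lower differences belonged to genes that macrophages are not known for. Of the 132 genes lower by 2-fold, 28 are on the skeletal muscle list, 10 on the stromal list and 23 are chromosome Y identifiers, which leaves 71 others. Of 39 muscle genes 33 were lower by 1.5-fold and 0 higher (median -1.47). The myosin light chain Myl1 read 36.0 and 33.3 RPKM in WT, 0.910 and 2.04 in BAFF KO and 4.17 in APRIL KO. Summed over the list, muscle genes came to 582 and 556 RPKM in WT, 230.3 and 206.0 in BAFF KO and 228 and 243 in APRIL KO, so WT was the high library. Ckm, Mb and Asb5 were at 0 reads in BAFF KO, 4 muscle genes in APRIL KO and 0 in WT. Stromal genes gave 211 and 209, 43.4 and 36.0, and 28.1 and 28.6 RPKM in the same order, with 11 of 13 lower (median -1.68). The collagen gene Col1a2 read 32.6 and 29.98 RPKM in WT against 2.64 and 1.74, and decorin (Dcn) 18.7 and 21.5 against 0.183 and 0.494. The matrix glycoprotein Thbs4 had 349 reads in WT and 0 in BAFF KO, at least 122-fold lower against a limit of 3 reads for the BAFF KO library. Set against APRIL KO in place of WT, 3 muscle genes were higher and 4 lower (median -0.05), and 4 stromal genes were higher and 0 lower (median 0.37), the opposite sign. Their part in the other lower genes, Timp1 among them, was not tested. Without the muscle list 642 genes were lower by 1.5-fold and 104 by 2-fold.

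**Figure D4:**
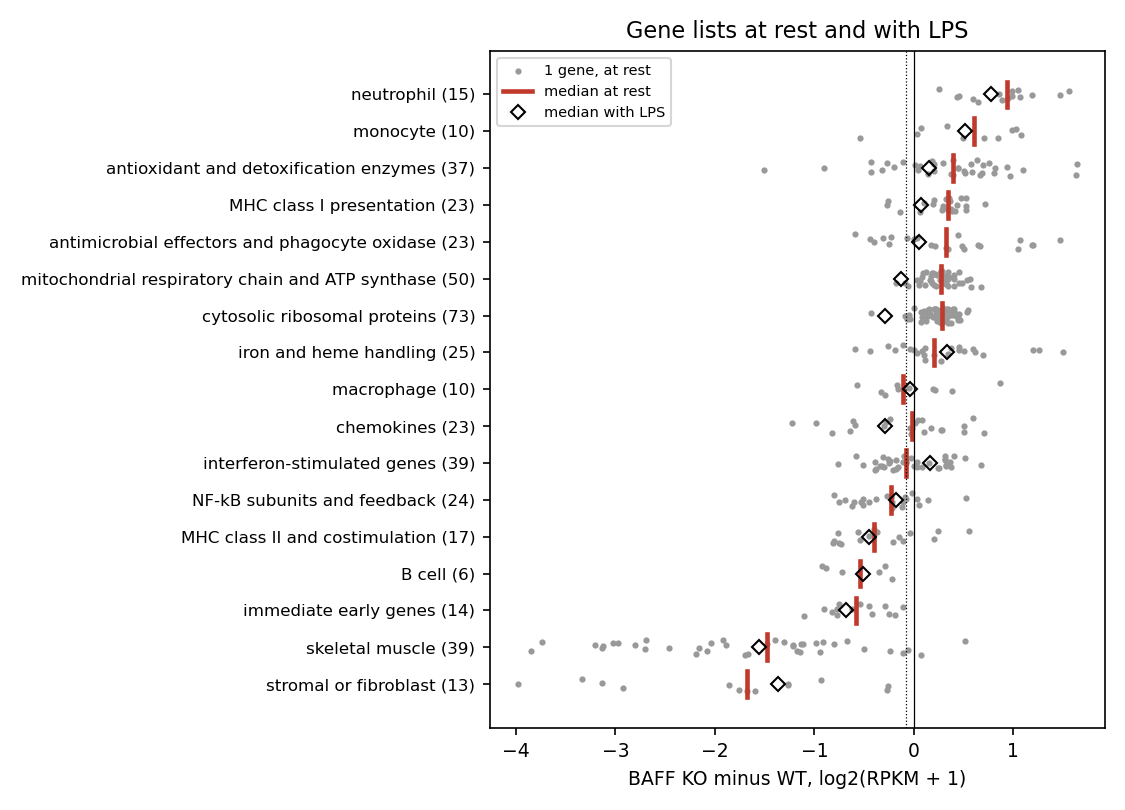
Differences BAFF KO minus WT in log2(RPKM + 1) for 17 gene lists, with the number of genes tested in brackets: grey points are genes at rest, red bars the medians at rest, open diamonds the medians with LPS, and the dotted line is the median of all genes at rest, -0.08. The neutrophil and monocyte lists lie highest at 0.94 and 0.60, and the muscle and stromal lists lowest at -1.47 and -1.68.

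A cluster at the boundary of the X and Y chromosomes was low in BAFF KO, and its genes were picked after their values were seen. Gm21887 (X:170009659-170019281), a predicted gene, read 168 and 136 RPKM in WT, 13.5 and 9.86 in BAFF KO and 41.6 in APRIL KO. The predicted gene Gm47283 (Y:90784738-90816464) read 50.6 and 44.5 against 2.11 and 2.27, with APRIL KO at 15.8. Mid1-ps1 (Y:90753057-90763485), a pseudogene of the ubiquitin ligase gene Mid1, read 33.9 and 28.7 against 4.47 and 3.21, and Mid1 itself (X:169685199-170005736) 3.09 and 2.81 against 0.757 and 0.556 RPKM. For Gm21887, Gm47283 and Mid1-ps1, WT was the highest library by its mean, APRIL KO intermediate and BAFF KO the lowest. These sequences are repeated between X and Y and reads could fall to either copy. Of 51 chromosome Y identifiers tested 23 were lower by 2-fold, but 39 of the 51 carry values identical to another identifier. With identical identifiers counted once the count lower by 2-fold over all genes was 117 in place of 132. Of the 4 genes tested on the sex-linked list 0 passed the rule: Ddx3y read 22.7 and 27.8 RPKM in WT and 17.6 and 20.4 in BAFF KO.

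Of the genes of the BAFF and APRIL pathway, 16 of 20 listed were tested, 1 was higher and 3 were lower (median -0.24, -0.10 length-centred, 1 higher and 2 lower). Traf3, the brake on NIK, read 4.54 and 4.31 RPKM in WT, 1.75 and 2.198 in BAFF KO and 3.91 in APRIL KO, on 175 and 85 reads. Map3k14, which codes for NIK, read 4.89 and 4.82 against 2.69 and 2.52, with APRIL KO at 4.27. The heparan sulfate proteoglycan Sdc4 read 14.4 and 14.2 against 9.04 and 8.26, and the adaptor Traf5 4.84 and 6.10 against 9.86 and 9.84. The receptor gene Tnfrsf13b was near the floor, at 1.18 and 1.43 against 0.945 and 0.543 RPKM (-0.40, short of the rule).

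The LPS-treated libraries, none of which enters the comparison at rest, show how these genes stood in other libraries of the same genotypes. There limma called 396 genes higher in BAFF KO (3.99%) and 432 lower (4.35%) at an adjusted p below 0.05 (Benjamini-Hochberg, 2-sided, 2 libraries against 2), 828 in all. Refits with 1 of the 4 libraries left out called 215 to 331 genes, which need not all be among the 828. Of the 48 genes higher by 2-fold at rest, 20 were called higher with LPS (41.7%) and 1 lower, the receptor Tarm1 (-0.87, adjusted p = 0.012). With each library left out in turn 7 to 17 of the 48 were called higher. Of the 132 lower genes, 44 were called lower (33.3%) and 1 higher, with a range of 21 to 42 lower. Among the 71 outside the muscle and stromal lists and chromosome Y, 17 were called lower (23.9%) and 1 higher. These 71 are not free of such genes. They hold the muscle genes Myl4, Tnnt2 and Actc1, and Gm21887 and Mid1 of the X and Y cluster, all called lower with LPS. They also hold the matrix genes Thbs4, Fbln2, Col5a3, Tnc and Lox, which were not called. At 1.5-fold, 48 of 290 were called higher and 5 lower, and 90 of 675 lower and 20 higher. Across all 9934 genes the 2 sets of differences had a Pearson r of 0.247 and a Spearman rho of -0.016, or 0.339 and 0.098 after length centring. These are descriptions across genes, and whether the difference between genotypes itself differed between the 2 states was not tested.

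Calls that held with every single library left out were made for 5 of the 48 and 19 of the 132 genes. Slc40a1 read 1.40 and 1.58 RPKM in the WT libraries with LPS and 5.30 and 5.01 in BAFF KO (1.31, limma adjusted p = 0.0019). Maoa read 7.79 and 7.72 against 24.4 and 28.4 (1.64, adjusted p = 0.0025), and Cers4 0.335 and 0.466 against 2.11 and 1.91 (1.10, adjusted p = 0.0048). Elane (1.10, adjusted p = 0.0057) and Gstm3 (0.82, adjusted p = 0.0049) were the other higher genes. All of these kept a gap between genotypes in both states, at levels for Slc40a1 far below those at rest. On the lower side, Ccl2 stood at 303 and 318 RPKM in WT with LPS against 123 and 123 in BAFF KO (-1.33, adjusted p = 0.0018). Rbpj read 16.5 and 14.4 against 6.83 and 7.88 (-0.98, adjusted p = 0.0047), close to its levels at rest. Gm21887 read 119 and 104 against 4.96 and 4.35 (-4.31, adjusted p = 4.1e-05), and Mid1, Mid1-ps1 and Gm47283 were also called lower in each fit. The remaining lower genes were Errfi1, Pdpn and genes of muscle, among them Acta1, Myog and Tnnc2.

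Other genes had a call with LPS that depended on single libraries. Marco (0.95, adjusted p = 0.031) lost it without WT library 14, WT library 15 or BAFF KO library 17, with adjusted p up to 0.14. Hmox1 read 171 and 173 RPKM in WT and 235 and 234 in BAFF KO (0.44, adjusted p = 0.012, up to 0.073 without 1 library), a smaller gap than at rest, and Spic gave 0.79 (0.028, up to 0.14). H2-Aa read 81.8 and 109 against 37.7 and 33.8 (-1.38, 0.0047), and its call was lost, at 0.052, without BAFF KO library 18. In the class II list 6 of 17 genes were called lower and 2 higher with LPS, and 0 to 5 lower when a library was left out. Of the neutrophil markers 7 of 15 were called higher and 0 lower (3 to 9, median 0.78), of the monocyte markers 5 of 10 (0 to 4, median 0.51), and of the antioxidant genes 11 of 37 (4 to 6, median 0.15). Mertk (12.96 and 14.9 RPKM against 47.5 and 54.5, 1.80, adjusted p = 0.00048) and Cat (57.9 and 56.4 against 125 and 136, 1.17, adjusted p = 0.000545) held in each fit and were further apart than at rest. The muscle list was lower in both states, with 28 of 39 called (11 to 21), while of 13 stromal genes 0 were called at a median of -1.37 with LPS against -1.68 at rest, and the WT libraries were far apart: Col1a1 read 69.1 RPKM in WT library 14 and 8.67 in WT library 15.

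Other differences at rest were smaller with LPS or had the opposite sign. Atp6v0c read 88.1 and 96.2 RPKM in WT and 83.9 and 83.2 in BAFF KO (-0.14, limma adjusted p = 0.35). Fabp4 kept its direction at a smaller size, with 281 and 237 RPKM against 361 and 324 (0.41, adjusted p = 0.054). The respiratory chain list had a median of 0.28 at rest (0.16 length-centred, 1 of 50 higher) and -0.13 with LPS, and the ribosomal protein list 0.28 (0.15 length-centred, 0.06 under quantile normalization, 0 of 73 past the rule) and -0.29 with LPS. In both states the sign of these medians was that of the 2 bins of shortest genes.

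**Figure D5:**
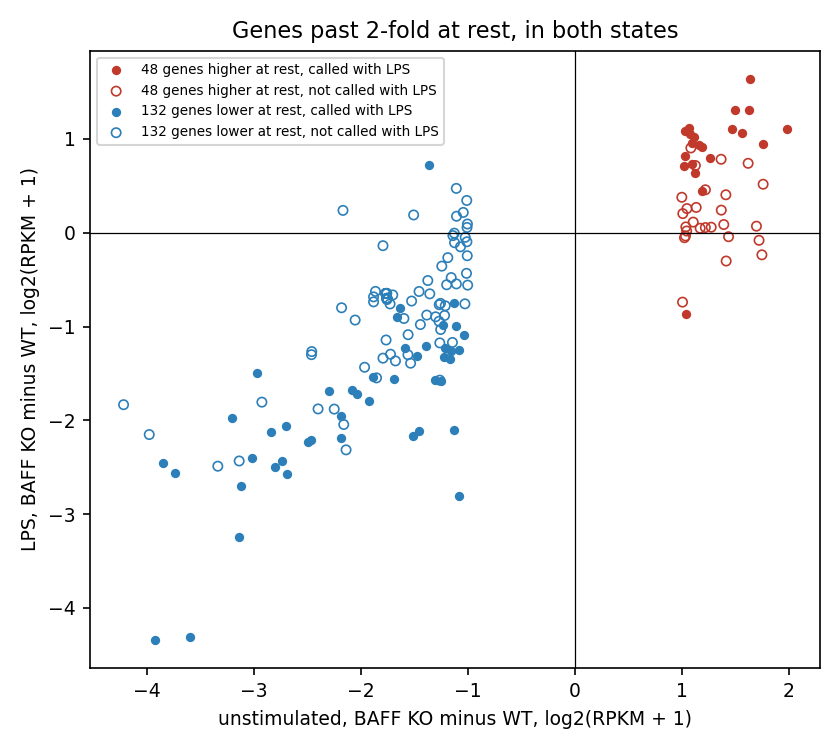
BAFF KO minus WT in log2(RPKM + 1) at rest (x axis) and with LPS (y axis, 2 libraries against 2) for the 48 genes higher (red) and 132 genes lower (blue) by 2-fold at rest, filled where limma gave an adjusted p below 0.05 with LPS. Filled points include 20 red genes above 0 and 44 blue genes below 0, and 1 of each colour on the other side.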

How the data were processed

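The authors deposited 1 table of RPKM values per gene for 18 columns. Per the submitters' processing notes the reads were aligned with STAR to mm10; the sources used here do not name the counter, annotation or gene filter. Per the labels' protocols, libraries were read as single reads of 85 bp, and 2 library kits are named, so whether strand was kept is unclear and antisense partners cannot be told apart. Each RPKM column was turned back into whole reads (100% of values whole within 0.01), which gave depth and exact binomial intervals (95%, counting error only) and a limit of 3 reads for a gene at 0. Genes at 0 carry a small floor value in the table.

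The 2 columns of a library were averaged, and 9934 genes with a group mean of at least 1 RPKM were kept. Log2(RPKM + 1) was compared. At rest there is 1 library a group and no test. With LPS, limma 3.58.1 in R 4.3.3 was fitted on 9 libraries and 6 group means with a trend, and its p-values reflect spread between libraries alone, which may be technical. Count tests were not used, as the deposited unit is RPKM. Symbols and coordinates are from GENCODE for GRCm38 (11084 identifiers matched, 80 did not), and promoter windows from RefSeq.

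The members and the 34 pathway and 17 marker lists were chosen with earlier results of these data known; 16 marker lists had a tested gene, and of the RNA quality list 0 genes are in the table used here. Named genes are both targets, the 15 largest differences each way past 2-fold with a symbol, without predicted genes and the muscle and sex-linked lists, up to 2 genes each way per list, and 4 muscle genes. A few genes this rule picks are not reported here. Other genes are list members or were singled out after their values were seen. The fits were checked on simulated data. Alternatives were the pseudocount, the filter, median ratio and quantile scaling, each column or library left out, APRIL KO in place of WT, the muscle list left out, a replicate block, and, added later, length centring, identical identifiers counted once and a crossed block.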

Additional observations from a re-analysis of the deposited data

Results flagged for a closer look

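For 10 of the genes named by rule and past 1.5-fold at rest, the LPS libraries stood on the opposite side, with both BAFF KO libraries beyond both WT libraries; whether the 2 states differ was not tested. Lower at rest and higher in BAFF KO with LPS (log2 difference with LPS, then at rest) were Traf3 at 0.41 against -0.87, Ciita at 0.47 against -0.80, Klf4 at 0.47 against -1.11, Itgav at 0.24 against -0.86, Flvcr1 at 0.75 against -0.59, Mitf at 0.37 against -0.68 and Il7r at 0.58 against -0.72. Higher at rest and lower with LPS were Ccl3 at -0.53 against 0.60, Bst2 at -0.30 against 0.67 and Mmp9 at -0.94 against 0.67. Among these 10, limma called Il7r alone with LPS (adjusted p = 0.045), and that call was lost with each of the 4 libraries left out. The trend with gene length also had opposite slopes in the 2 states, and its part in these 10 was not tested. Length-centred at rest, Ciita (-0.52), Itgav (-0.584), Flvcr1 (-0.50), Mitf (-0.48), Ccl3 (0.42) and Bst2 (0.49) fell short of 1.5-fold. Traf3 (-0.67), Klf4 (-1.06), Il7r (-0.67) and Mmp9 (0.72) stayed past it. Over all genes past 1.5-fold at rest, limma called 25 on the opposite side with LPS, 5 of the higher and 20 of the lower. Of these, Alas1 (0.69 at rest, -1.34 with LPS, adjusted p = 0.00075) kept its call with each library left out, and Tarm1 (1.04 at rest, -0.87 with LPS, adjusted p = 0.012) did not. Groups of 2 libraries were not tested for a library that stands apart.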

How the results depend on the processing

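With 1 library a genotype at rest, counts rest on the rule and the scale. A pseudocount of 0.1 RPKM gave 450.0 genes higher and 1142 lower by 1.5-fold, and 130.0 and 334 by 2-fold. A mean of at least 5 RPKM at rest gave 184, 343, 30 and 68. Median ratio scaling gave 426 lower by 1.5-fold, quantile normalization 474 higher and 426 lower by 1.5-fold and 73 higher by 2-fold, and length centring 426 lower by 1.5-fold. With 1 column a library the ranges were 409 to 541 higher and 788 to 1048 lower by 1.5-fold, and 73 to 130.0 and 152 to 220.0 by 2-fold. APRIL KO in place of WT gave 551 higher and 1038 lower by 1.5-fold and 73 higher by 2-fold. Counts without the low-value filter, without the rule on column overlap, without the muscle list or with identical identifiers counted once stayed within 1.5 times.

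With LPS the count of 828 genes became 215 to 331 when 1 library was left out, which also leaves 1 arm with a single library that is assumed to vary like the others. A replicate block gave 564 genes, and since deviations of same-numbered libraries correlated at -0.18 (WT and BAFF KO), -0.10 and 0.12, the numbers were not taken as pairs. The crossed pairing gave 926 genes. Of the 112 named genes none changed direction at rest under any scaling; 14 moved by more than their column spread under length centring, 10 under the smaller pseudocount, 10 under quantile normalization and 4 under median ratio scaling. Depth limits genes with few reads in one library, such as Cers4, Ptgs2, Prl2c2 and Il10.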

Other observations

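The next lists had small numbers of genes past the rule between unstimulated BAFF KO and WT libraries, but not always small shares. The share of higher genes in the inflammasome and Fc gamma lists was above that over all genes. So was the share of lower genes in the Toll-like receptor list, each on 1 or 2 genes. Over all genes 2.92% were higher and 6.79% lower. Of 39 interferon-stimulated genes 1 was higher (Bst2, 309 and 294 RPKM in WT, 482 and 479 in BAFF KO) and 1 lower (Mx2, 20.3 and 18.03 against 10.6 and 11.2), and of 13 guanylate-binding protein and immunity-related GTPase genes 0 passed the rule, although 4 of the latter were called higher with LPS by limma (0 with any 1 library left out). Of 19 Toll-like receptor genes Tlr2 (-0.64) and Tlr13 (-0.64) were lower, and under median ratio scaling 0 were. The interleukin 18 binding protein gene Il18bp read 7.15 and 9.09 RPKM in WT and 14.5 and 18.3 in BAFF KO, the 1 higher gene among 17 of the inflammasome list. Of 16 complement genes 0 passed, and of 32 Fc gamma and paired receptors Clec4n (74.4 and 74.4 against 139 and 138 RPKM) and Treml4 were higher.

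Metabolic and growth lists varied. In the lineage factor, integrin and alternative activation lists the share of lower genes was above the 6.79% over all genes. It was also above that, on 2 genes each, in the cholesterol and unfolded protein response lists. Of 33 glycolysis genes only Hif1a was lower (30.3 and 32.2 against 19.3 and 20.6 RPKM), of 23 cholesterol synthesis genes 2 were lower, Nsdhl (-0.62) among them, and of 17 liver X receptor genes Pltp was lower (378 and 398 against 274 and 200 RPKM) and Apoc2 higher (0.63). Among 56 replication and mitosis genes Ccnd1 (-0.62) and Anln (-0.84) were lower. The amino acid carrier Slc7a5 read 19.1 and 16.2 RPKM in WT and 9.54 and 8.24 in BAFF KO, the 1 lower gene of 24 in the ATF4 list. In the unfolded protein response list 2 of 19 were lower (Atf6 and Sel1l), in the metallothionein and zinc list 1 of 16 (Slc30a4), and in the lineage factor list 4 of 27 (Klf2, Klf4, Mitf and Etv5). Of 25 integrin and adhesion genes Cd44 (57.3 and 59.0 against 30.7 and 32.5 RPKM), Itgav and Fn1 were lower and Pecam1 higher. Of 21 alternative activation genes Chil3 and Clec10a were higher and Il4ra, Klf4, Myc and Il10 lower, and of 21 prostaglandin pathway genes Mgst1 was higher and Ptgs2 lower. Length-centred, the counts of lower genes fell to 0 in the glycolysis and unfolded protein response lists. They fell to 1 in the integrin and cholesterol synthesis lists and to 3 in the lineage factor and alternative activation lists.

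Markers of further cell types gave 2 of 9 higher for mast cells and basophils (Prss34 at 0.79 and Mcpt8 at 0.65), 0 of 8 for erythroid cells, 1 of 5 for megakaryocytes (Treml1), 1 of 5 for endothelium (Pecam1, while Cdh5 was at 0 reads in WT), 1 of 3 for adipocytes (Fabp4) and 0 of 1 for keratinocytes. Of 3 T or NK cell markers Il7r was lower, and of 7 osteoclast markers Mmp9 was higher and Dcstamp lower. The heme synthesis gene Alas1 was higher at rest (0.69) and lower in BAFF KO with LPS (77.8 and 92.1 RPKM in WT against 32.4 and 33.5, -1.34, limma adjusted p = 0.00075), a gene chosen after its values were seen, and the difference between the states was not tested.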
